A study of Mus musculus with 12 samples.

Results

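The 44 genes described here belong to the actin and focal adhesion machinery and were followed across 4 groups of messenger RNA libraries from mouse keratinocytes in culture, the cells that build the epidermis. The genes encode actins, crosslinkers, non-muscle myosin II, tropomyosins, the Arp2/3 complex, actin turnover factors and the adaptors that tie integrins to actin. They were taken from a list of gene symbols by exact match to the names in the count table, and all 44 were among its 54532 listed genes. Of these 44, 41 had enough counts to be tested, among 13571 tested genes in all. The question put to them is the one the study's design states, how the cortical and the total translatome compare in wounded and in unwounded cells.

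All 4 groups came from wild-type keratinocytes carrying DP(1-584)-BirA, residues 1 to 584 of desmoplakin (the desmosomal plaque protein) joined to the biotin ligase BirA. All cultures were grown to confluence without calcium, then given calcium to differentiate, 2 µg/mL doxycycline to switch on the fusion protein, and biotin for 16 h; 2 of the 4 groups were wounded before the biotin pulse. RNA of the translating part of a sucrose gradient was split on neutravidin, which binds biotin. The bound RNA is called cortical here and the unbound remainder total, and each of the 2 fractions was sequenced from unwounded and from wounded cells, with 3 libraries for each of the 4 groups. The labels call these biological replicates. The total fraction is thus a depleted fraction and not whole-cell RNA, and no library of untagged cells or of input RNA was analysed here.

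As background, actin filaments are nucleated by the Arp2/3 complex as branches and by formins as unbranched filaments, are fed by profilin, severed by cofilin, and pulled by non-muscle myosin II, a motor of paired heavy chains with essential and regulatory light chains. At focal adhesions talin and kindlin bind integrin tails, and vinculin, zyxin, paxillin and focal adhesion kinase gather there as tension builds. In keratinocytes this machinery carries the sheet forward after a wound, and a belt of actomyosin under the membrane lies next to the desmosomes.

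Library totals ran from 8980013 to 23457548 counts, and the 44 genes took between 0.979% and 1.17% of them. Of 11 keratinocyte markers 10 reached an FPKM (fragments per kilobase of gene, scaled to library size) of 1, and the summed FPKM of the marker lists for fibroblasts, muscle, endothelium and melanocytes stayed at or under 1.44 in every library. The immune list was higher, from 14.2 to 46.8, nearly all of it Cd68, and is given by group under wounding. The first wounded total library stood apart: 13117 genes had at least 1 count in it, whereas the other 11 libraries detected 14393 to 16867, and Spearman correlations within its group went down to 0.962, against 0.981 or more in the other 3 groups. Where leaving it out turned a member's call, or moved a called difference by more than 0.1 on the log2 scale, the value without it is given.

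Levels per unit of gene length differed widely between the members. Beta-actin (Actb) was highest on average, with a mean of 817 FPKM in unwounded total, 725 in unwounded cortical, 1055 in wounded total and 761 in wounded cortical libraries. Next came the filament-severing factor cofilin (Cfl1), from 459 to 842 FPKM over the group means, the actin monomer carrier profilin (Pfn1), from 403 to 738, and the myosin essential light chain Myl6, from 165 to 392. The order of these 4 was not fixed: Cfl1 and Actb overlapped in unwounded total libraries. The Arp2/3 subunits Arpc2, Arpc1a, Arpc3 and Arpc1b, and the membrane linker ezrin (Ezr) stood between 40.8 and 201 FPKM in the group means, whereas the myosin heavy chain Myh9, the integrin-binding talin (Tln1) and focal adhesion kinase (Ptk2) stood between 3.52 and 11.4.

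**Figure D1:**
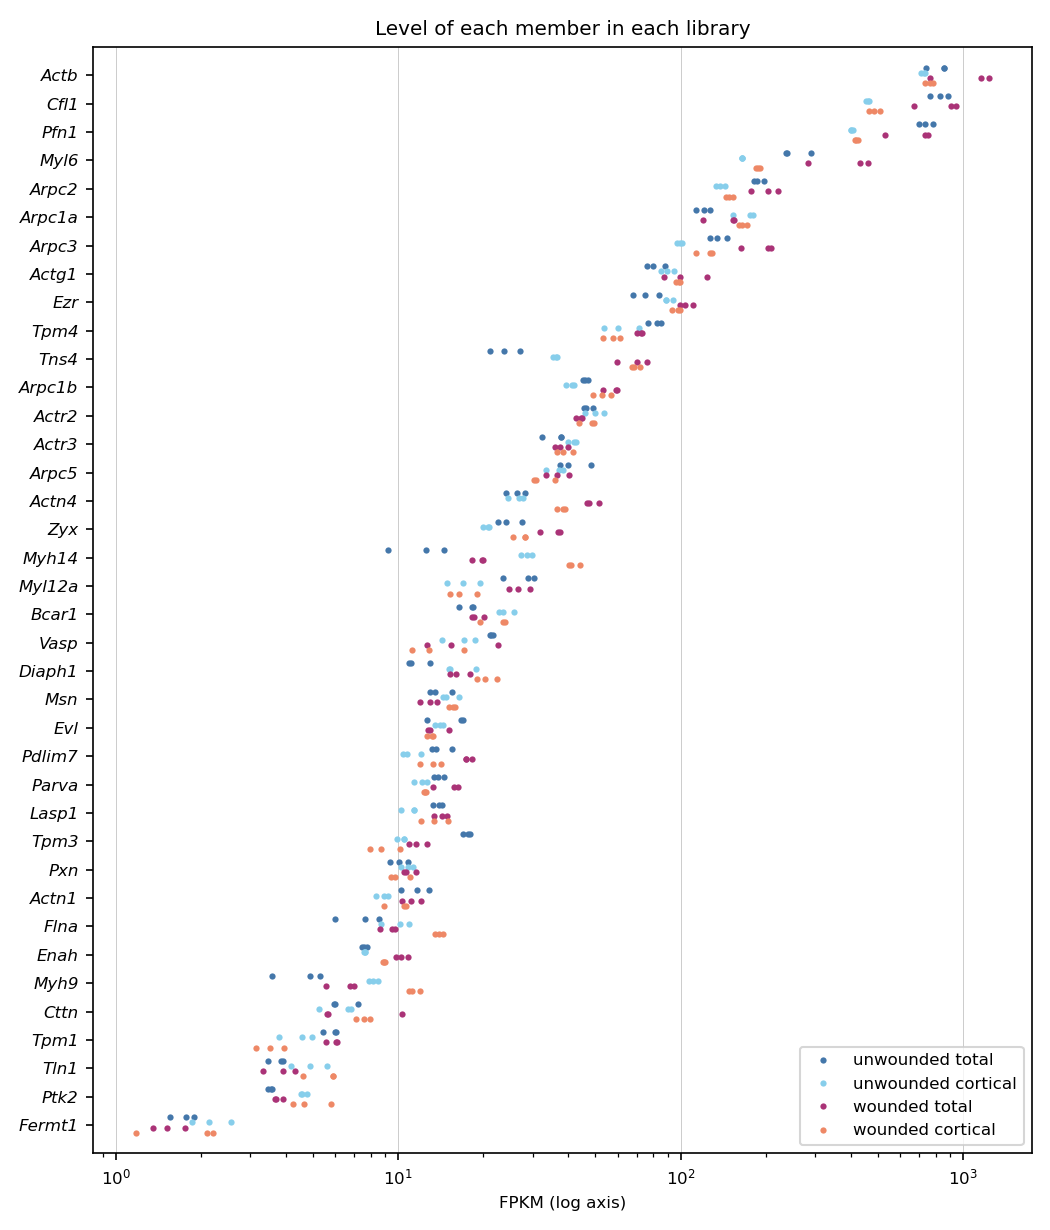
FPKM of 38 members in each of the 12 libraries, on a log axis, with members in order of their mean. Each point is 1 library; Actb is at the top and Fermt1 at the bottom, and the 6 members with a library at 0 are left out.

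Several members were close to absent. Kindlin-2 (Fermt2) had 0 counts in all 12 libraries, whereas kindlin-1 (Fermt1), the kindlin of epithelia, had 1.83 FPKM on average, so it made up 100% of the FPKM of these 2 genes. The heavy chain Myh10 and the regulatory light chain Myl9 had 33 and 3 counts over all libraries. Those 3 genes were not tested. Integrin-linked kinase (Ilk) had 92 counts in all, vinculin (Vcl) 274 and the light chain Myl12b 299, and none of the 3 passed a test in any comparison. These 3 counts are uncertain as levels. The libraries do not mark strand, and 89.7% of the exon bases of Ilk and 25.5% of those of Vcl also lie in exons of genes on the opposite strand (mainly Taf10 and Ap3m1). Myl12b shares exons with a gene model of the same name, and its coding sequence is 96.5% identical to that of Myl12a. How reads that match 2 genes were counted is not given in the sources used here.

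Between the fractions of unwounded cells, the heavy chains of myosin II and 2 of its 3 tested light chains went opposite ways, and the abundant actin recyclers cofilin and profilin were lower in the cortical fraction. Of the 41 tested members 19 passed an adjusted p of 0.05, 8 with more and 11 with less in the cortical fraction, against 14.2% of all tested genes (6.62% higher, 7.59% lower). The 8 were Flna, Myh9, Myh14, Arpc1a, Diaph1, Tns4, Ptk2 and Bcar1. The 11 were Actn1, Myl6, Myl12a, Tpm3, Tpm4, Arpc2, Arpc3, Cfl1, Pfn1, Lasp1 and Pdlim7. The members' median log2 difference was -0.05, against 0.00 over all genes. In wounded cells 18 members passed, 6 higher (Flna, Myh9, Myh14, Diaph1, Tln1 and Ptk2) and 12 lower (Actb, Actn4, Myl6, Myl12a, Tpm1, Tpm3, Arpc2, Arpc3, Cfl1, Pfn1, Zyx and Pdlim7), against 15.7% of all genes (7.62% higher, 8.03% lower), with a median of -0.09 against 0.04. Tests were edgeR's quasi-likelihood test with Benjamini-Hochberg adjustment over all tested genes, and every adjusted p below comes from it unless another setting is named.

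Scaling moved the balance of these calls. With library totals alone in place of TMM factors, the median of all genes shifted by 0.19 and 0.21 on the log2 scale, and 10 members were called higher and 6 lower in unwounded cells and 10 and 5 in wounded cells. Under that scaling all genes split into 1582 higher and 469 lower calls in unwounded cells, and into 2203 and 520 in wounded cells, against 898 and 1030, and 1034 and 1090, with TMM. For wounding in the total fraction library totals gave 7 members higher and 2 lower, and all genes split into 708 higher and 1104 lower, against 1139 and 977 with TMM.

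**Figure D2:**
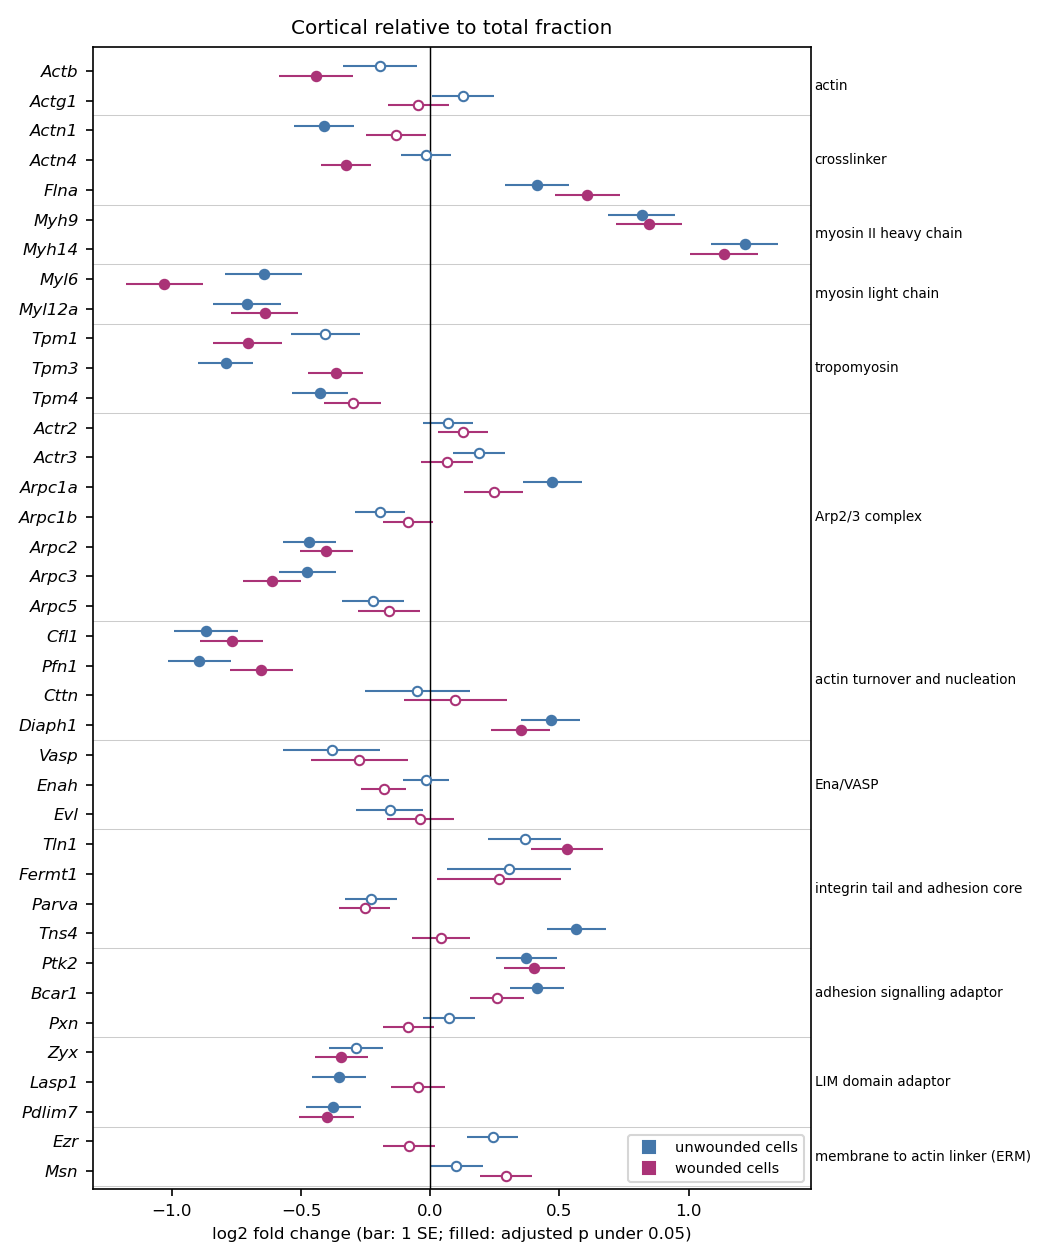
Log2 difference between the cortical and the total fraction (x axis) for 38 members grouped by role, in unwounded (blue) and wounded (purple) cells. Bars are 1 standard error and filled points passed an adjusted p of 0.05; Myh9 and Myh14 lie farthest right, and Cfl1, Pfn1 and Myl6 are among those farthest left.

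The heavy chains of myosin II, its motor subunits, were higher in the cortical fraction. Myh14, the heavy chain of myosin IIC (chr7:44605803-44670843 on GRCm38, minus strand), had 92.6, 68.6 and 107 CPM (counts scaled to a common library size with TMM factors) in unwounded total and 209, 217 and 197 in unwounded cortical libraries. The libraries did not overlap, and the difference of 1.22 (SE 0.13, adjusted p = 2.42e-05) on the log2 scale was the largest called difference of any member between the fractions, 2.32-fold. Its wounded libraries gave 144, 133 and 144 total and 302, 326 and 299 cortical, a difference of 1.14 (SE 0.13, adjusted p = 0.000106). Myh9, the heavy chain of myosin IIA (chr15:77760587-77842175, minus strand), followed with 63.8, 47.3 and 69.2 CPM in unwounded total and 106, 102 and 109 in unwounded cortical libraries. That was 0.82 (SE 0.13, adjusted p = 0.000716), and in wounded cells 0.85 (SE 0.13, adjusted p = 0.000699). Both heavy chains were thus higher in every cortical library than in any total library of the same condition.

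Of the 3 tested light chains 2 were called, both lower in the cortical fraction. Myl6, the essential light chain that supports the lever arm of the motor, had 897, 1381 and 1456 CPM in wounded total and 617, 608 and 603 in wounded cortical libraries, a difference of -1.03 (SE 0.15, adjusted p = 0.000545). Even the low first wounded total library lay above all 3 cortical ones. In unwounded cells the difference was -0.64 (SE 0.15, adjusted p = 0.00773). Myl12a, a regulatory light chain whose phosphorylation switches the motor on, had 103, 99.7 and 79.9 CPM in unwounded total and 65.8, 50.2 and 56.7 in unwounded cortical libraries, -0.71 (SE 0.13, adjusted p = 0.00202), and -0.64 in wounded cells (adjusted p = 0.00385). Myl12a shares 19.9% of its exon bases with other genes, 13.8% with a gene model named Myl12b on the same strand. The third, Myl12b, was at -0.57 in unwounded and 1.62 in wounded cells (adjusted p = 0.777 and 0.25). Per summed heavy chain FPKM, Myl6 stood at 16.1 ± 5.75 FPKM (SD, n = 3) in unwounded total, 4.51 ± 0.117 in unwounded cortical, 15.3 ± 4.21 in wounded total (10.5, 18.2 and 17.3 in its libraries) and 3.54 ± 0.173 in wounded cortical libraries. Myh14 was 72.4% ± 0.612 of the heavy chain FPKM in unwounded total and 77.7% ± 1.41 in unwounded cortical libraries, and 75.1% ± 1.45 and 78.6% ± 0.357 in wounded ones (exact two-sided permutation p = 0.1 for each pair of fractions, the smallest that 3 against 3 can give).

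**Figure D3:**
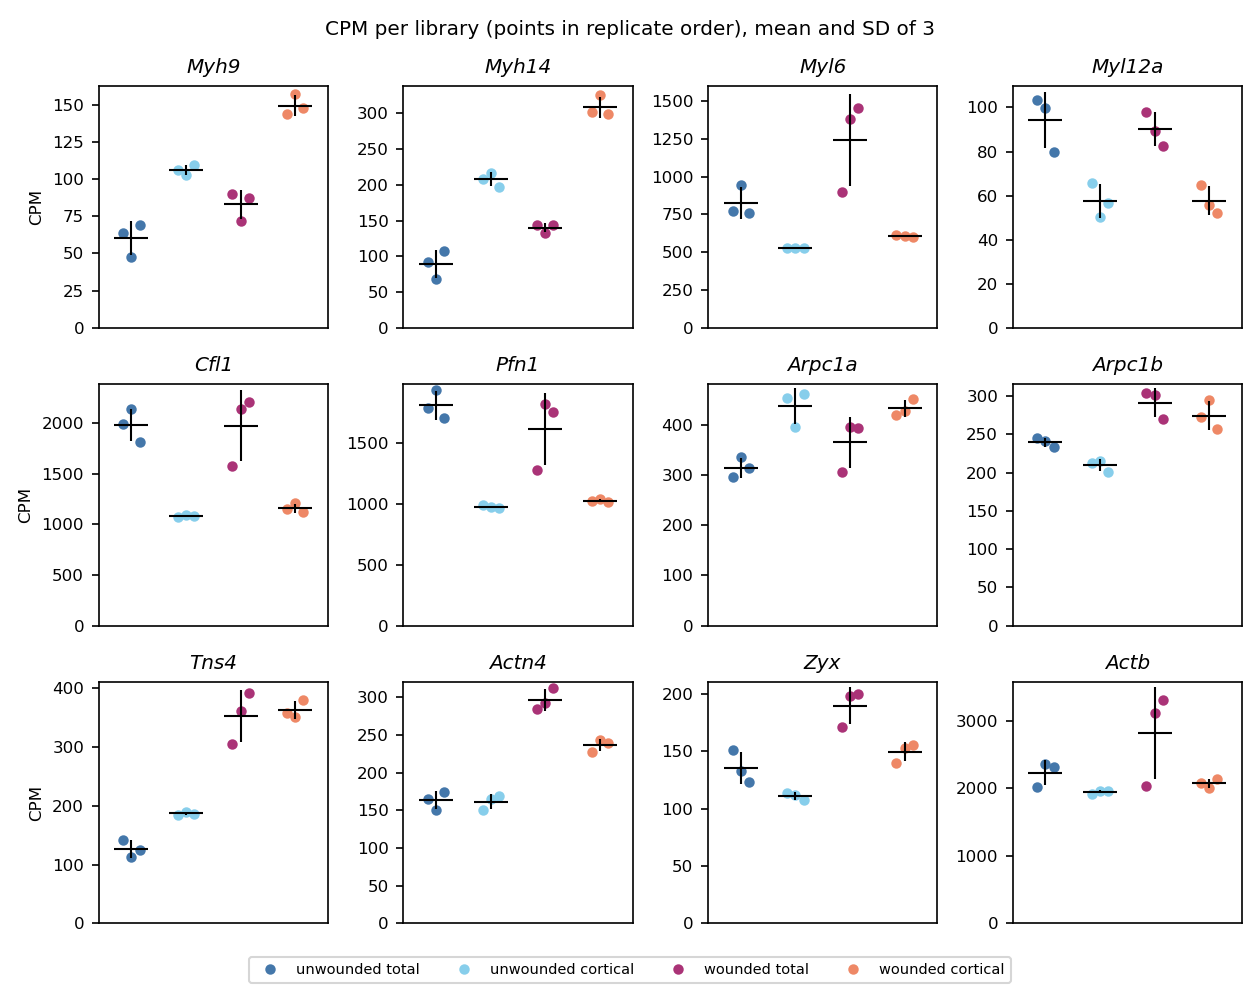
CPM of 12 members in each library (points), with the mean and SD of 3 per group; each y axis starts at 0. Myh9 and Myh14 are higher in the cortical libraries and Myl6, Myl12a, Cfl1 and Pfn1 lower, Tns4 and Actn4 are higher in wounded cells, and the first wounded total library is low for Actb, Myl6, Cfl1 and Pfn1.

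Beta-actin messenger RNA is the textbook case of a message carried to the cell edge, through an element at the start of its 3′ UTR known as the zipcode. The element was looked for as CGGAC and ACACC, 10 to 25 bases apart, on the sense strand of the 3′ UTR. It is the pattern of the Actb zipcode, so a match in Actb was fixed in advance. It was present in 1 of the 44 members, Actb, and in 54 of 20694 mouse genes with a 3′ UTR (0.261%). In Actb it begins at base 2 of the 3′ UTR (chr5:142903768-142903796, GRCm38, minus strand) and is shown with both parts in capitals.
Actb zipcode: CGGACtgttactgagctgcgttttACACC
Actb had 2017, 2353 and 2315 CPM in unwounded total and 1920.2, 1957 and 1965 in unwounded cortical libraries, a difference of -0.19 (SE 0.14, adjusted p = 0.452), so it was not called there. In wounded cells it had 2035, 3114 and 3299 in total and 2076, 1999 and 2138 in cortical libraries and was called lower in the cortical fraction, at -0.44 (SE 0.14, adjusted p = 0.0443). The first wounded total library overlapped the cortical ones, and without it the difference was -0.63 (adjusted p = 3.18e-06); the call was lost under 9 of the 12 fits that leave out a library.

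Gamma-actin (Actg1) differs from beta-actin at the start of its coding sequence. The first 60 coding bases of both genes are shown from GENCODE M21 with the 9 differing bases in capitals (Actb at chr5:142905627-142905686 and Actg1 at chr11:120348032-120348091, both on the minus strand).
Actb: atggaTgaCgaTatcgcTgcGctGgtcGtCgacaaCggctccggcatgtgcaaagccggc
Actg1: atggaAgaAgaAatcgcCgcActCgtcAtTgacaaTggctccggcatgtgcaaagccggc
The 2 coding sequences were identical at 88.6% of 1125 bases and shared 0 windows of 100 bases. Actg1 gave 0.13 between the fractions of unwounded cells and -0.05 in wounded cells (adjusted p = 0.594 and 0.853). Actb made up 90.9% ± 0.440 of the FPKM of both genes in unwounded total and 89.0% ± 0.443 in unwounded cortical libraries (SD, n = 3; exact permutation p = 0.1). In wounded total libraries the share was 86.0%, 92.1% and 93.4%, the first library being the lowest of all 12, and in wounded cortical ones 88.6% ± 0.128 (exact permutation p = 0.4).

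Filamin A (Flna), which joins filaments at right angles and binds integrin tails, had 89.5, 81.4 and 91.4 CPM in wounded total and 129, 133 and 138 in wounded cortical libraries, 0.61 (SE 0.12, adjusted p = 0.00396), and 0.41 in unwounded cells (adjusted p = 0.0355). The alpha-actinins bundle parallel filaments, and neither was called higher in the cortical fraction. Actn1 had 65.7, 58.2 and 71.8 CPM in unwounded total and 49.6, 51.3 and 46.2 in unwounded cortical libraries, without overlap, -0.41 (SE 0.12, adjusted p = 0.0244). Actn4 was called lower in wounded cells, at -0.33 (SE 0.10, adjusted p = 0.0315), with its libraries given under wounding, and was at -0.02 in unwounded cells. Each was thus called in 1 of the 2 comparisons, and the change of that difference with wounding did not pass for either (adjusted p = 0.661 and 0.518).

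The tropomyosins, coiled coils that run along the filament and help decide which motors and severing factors reach it, lay on the total side. Tpm3 had 109, 106 and 111 CPM in unwounded total and 60.6, 64.1 and 63.9 in unwounded cortical libraries, -0.79 (SE 0.11, adjusted p = 0.00024). Tpm1 had 39.0, 36.0 and 39.1 in wounded total and 26.0, 23.1 and 20.9 in wounded cortical libraries, -0.71 (SE 0.13, adjusted p = 0.00245). Both sets of libraries were apart. Tpm4, the main tropomyosin gene here with 77.7% to 82.1% of the FPKM of the 3 in the group means, had 184, 193 and 171 CPM in unwounded total and 119, 133 and 156 in unwounded cortical libraries, -0.43 (SE 0.11, adjusted p = 0.0141). In the other condition Tpm1 was at -0.41 (adjusted p = 0.0526), Tpm3 at -0.37 (0.0286) and Tpm4 at -0.30 (0.0717). All 6 values were below 0, and 4 passed.

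The subunits of the branching Arp2/3 complex did not move as one. The actin-related proteins Actr2 and Actr3, which stand in for actin at the base of a new branch, gave 0.07 and 0.19 in unwounded and 0.13 and 0.06 in wounded cells and passed in neither. Arpc2, which contacts the mother filament, had 385, 413 and 374 CPM in unwounded total and 274, 283 and 291 in unwounded cortical libraries, -0.47 (SE 0.10, adjusted p = 0.00569), and -0.40 in wounded cells (adjusted p = 0.0139). Arpc3 had 451, 565 and 573 in wounded total and 363, 355 and 321 in wounded cortical libraries, -0.61 (SE 0.11, adjusted p = 0.00188), and -0.48 in unwounded cells (adjusted p = 0.00848). Arpc5 was at -0.22 and -0.16 and passed in neither.

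The alternative ARPC1 subunits lay on opposite sides of 0, only one of them with a call. They are neighbours on chromosome 5, Arpc1a at 145083830 to 145108761 and Arpc1b at 145114215 to 145130705 (GRCm38, plus strand), and their coding sequences are 74.5% identical with 0 shared windows of 100 bases. The first 60 coding bases show how far they can be told apart, with the 15 differing bases in capitals (chr5:145091183-145091242 and chr5:145121676-145121735).
Arpc1a: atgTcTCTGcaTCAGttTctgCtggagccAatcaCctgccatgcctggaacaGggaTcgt
Arpc1b: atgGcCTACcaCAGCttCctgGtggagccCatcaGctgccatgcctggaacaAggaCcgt
Arpc1a had 296, 336 and 314 CPM in unwounded total and 455, 396 and 461 in unwounded cortical libraries, 0.47 (SE 0.12, adjusted p = 0.0108), and was the only one of the 7 Arp2/3 subunits called higher in the cortical fraction. In wounded cells Arpc1a was at 0.25 (adjusted p = 0.167). Arpc1b was at -0.20 (adjusted p = 0.211). Of the summed FPKM of both, Arpc1a had 72.3% ± 1.48 in unwounded total and 80.6% ± 1.78 in unwounded cortical libraries (SD, n = 3; exact permutation p = 0.1), and 71.2% ± 3.95 and 75.9% ± 1.79 in wounded ones (exact permutation p = 0.2). Arpc1b shares 18.2% of its exon bases with Pdap1 on the opposite strand.

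Cofilin and profilin, which recycle actin monomers, were lower in the cortical fraction in both conditions. Pfn1 had 1787, 1933 and 1699.7 CPM in unwounded total and 985, 968 and 962 in unwounded cortical libraries, -0.89 (SE 0.12, adjusted p = 0.000248), 1.86-fold lower. Cfl1 had 1989.5, 2133 and 1816 and 1076, 1095 and 1081, -0.87 (SE 0.12, adjusted p = 0.00031), 1.83-fold lower. In wounded cells Pfn1 was at -0.65 and Cfl1 at -0.77 (adjusted p = 0.00221 and 0.000892), and in both conditions every cortical library lay below every total one. Cfl1 shares 16.5% of its exon bases with Snx32 on the opposite strand. The formin Diaph1, which extends unbranched filaments from profilin-bound actin, went the other way: 71.7, 71.2 and 83.1 CPM in unwounded total and 96.5, 96.9 and 119 in unwounded cortical libraries, 0.47 (SE 0.11, adjusted p = 0.0116), and 0.35 in wounded cells (adjusted p = 0.0465, lost in 10 of 12 other settings). Cortactin (Cttn), which holds Arp2/3 branches, was at -0.05 and 0.10. The Ena/VASP proteins, which speed elongation at filament tips, passed in neither condition, with values from -0.38 (Vasp, unwounded) to -0.02 (Enah, unwounded).

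At the integrin tail 2 members were called. Tensin-4 (Tns4), an epithelial tensin that binds the integrin beta tail without the actin-binding part of other tensins, had 142, 112 and 124 CPM in unwounded total and 185, 189.6 and 186 in unwounded cortical libraries, 0.57 (SE 0.11, adjusted p = 0.0035). In wounded cells it was at 0.04 (adjusted p = 0.866). Talin (Tln1), which activates integrins, had 38.2, 32.6 and 42.1 CPM in wounded total and 46.0, 58.2 and 58.8 in wounded cortical libraries, 0.53 (SE 0.14, adjusted p = 0.0175), and 0.36 in unwounded cells (adjusted p = 0.0983). Those groups did not overlap, but the call was lost without the wounded total replicate 2 or the wounded cortical replicates 2 or 3. Parva, an actin-binding partner of integrin-linked kinase, was at -0.23 and -0.25, and kindlin-1 at 0.30 and 0.27, all without a call.

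Focal adhesion kinase (Ptk2) had 46.2, 43.5 and 43.4 CPM in wounded total and 55.6, 69.4 and 51.1 in wounded cortical libraries, 0.40 (SE 0.12, adjusted p = 0.0273), and 0.37 in unwounded cells (adjusted p = 0.0428). Ptk2 lost the wounded call in 4 and the unwounded call in 7 of 12 fits that leave out a library. Ptk2 also lost them in 6 and 7 of 12 other settings. Bcar1, its docking partner p130Cas, had 84.5, 76.8 and 85.1 and 108, 117 and 103 in unwounded cells, 0.41 (SE 0.11, adjusted p = 0.0142), and 0.26 in wounded cells (adjusted p = 0.109). Paxillin (Pxn), which both bind, was at 0.07 and -0.09 without a call. Pdlim7, Lasp1 and zyxin, grouped here as LIM domain adaptors, lay below 0 in both conditions. Pdlim7 had 83.9, 84.3 and 88.0 CPM in wounded total and 58.6, 65.5 and 70.0 in wounded cortical libraries, -0.40 (SE 0.11, adjusted p = 0.0182), and was also called in unwounded cells at -0.38 (adjusted p = 0.0267). Lasp1 had 94.5, 88.5 and 92.1 in unwounded total and 74.7, 74.4 and 66.2 in unwounded cortical libraries, -0.35 (SE 0.10, adjusted p = 0.0316), and -0.05 in wounded cells (adjusted p = 0.814). Zyxin (Zyx) was at -0.29 (adjusted p = 0.0778) and, called, at -0.34 (0.0336). The ERM proteins ezrin and moesin (Msn), which anchor actin to the membrane, passed in neither condition: ezrin was at 0.24 and -0.08, moesin at 0.10 and 0.29.

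Coding length moved with these differences. The members that were higher in the cortical fraction mostly have long coding sequences (Flna 7941 bases, Myh14 6099, Myh9 5880) and the lower ones short (Pfn1 420, Myl6 474, Myl12a 516, Cfl1 681). Of the 23 tested members under 1500 coding bases, 10 were called lower and 1, Arpc1a, higher in unwounded cells, with a median log2 difference of -0.38, and 10 were lower and 0 higher in wounded cells, with a median of -0.30. Of the 18 longer ones, 7 were higher and 1, Actn1, lower in unwounded cells (median 0.27), and 6 were higher and 2, Actn4 and Zyx, lower in wounded cells (median 0.18). All genes went the same way: the medians were -0.15 and -0.10 under 1500 bases and 0.21 and 0.25 above. Calls over all genes were not counted by length class, so the members' counts have no share to be set against. Spearman's rho between coding length and the difference was 0.77 and 0.61 over the 41 members and 0.48 and 0.47 over 11483 genes, which are not independent replicates and share the same 6 libraries in each comparison.

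With the trend on coding length removed within each library, a setting chosen after the data were seen, 11 members were called in unwounded cells and 14 in wounded cells. Of the 11483 genes tested in this setting, 9.45% and 9.47% were called. Myh14, Myh9, Arpc1a, Tns4, Cfl1, Pfn1 and Tpm3 were still called in unwounded cells, at 0.82, 0.43, 0.53, 0.42, -0.63, -0.52 and -0.63. Myl6 was at -0.29 (adjusted p = 0.0685) in unwounded and -0.67 (0.000372) in wounded cells, and Myl12a at -0.38 (0.0827) and -0.34 (0.112). Filamin A was at -0.04 (0.9) and 0.03 (0.913), without a call. Tpm4, Arpc3, Diaph1, Ptk2, Bcar1 and Lasp1 also lost their calls in unwounded cells, and Tpm3, Diaph1, Tln1 and Ptk2 theirs in wounded cells.

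**Figure D4:**
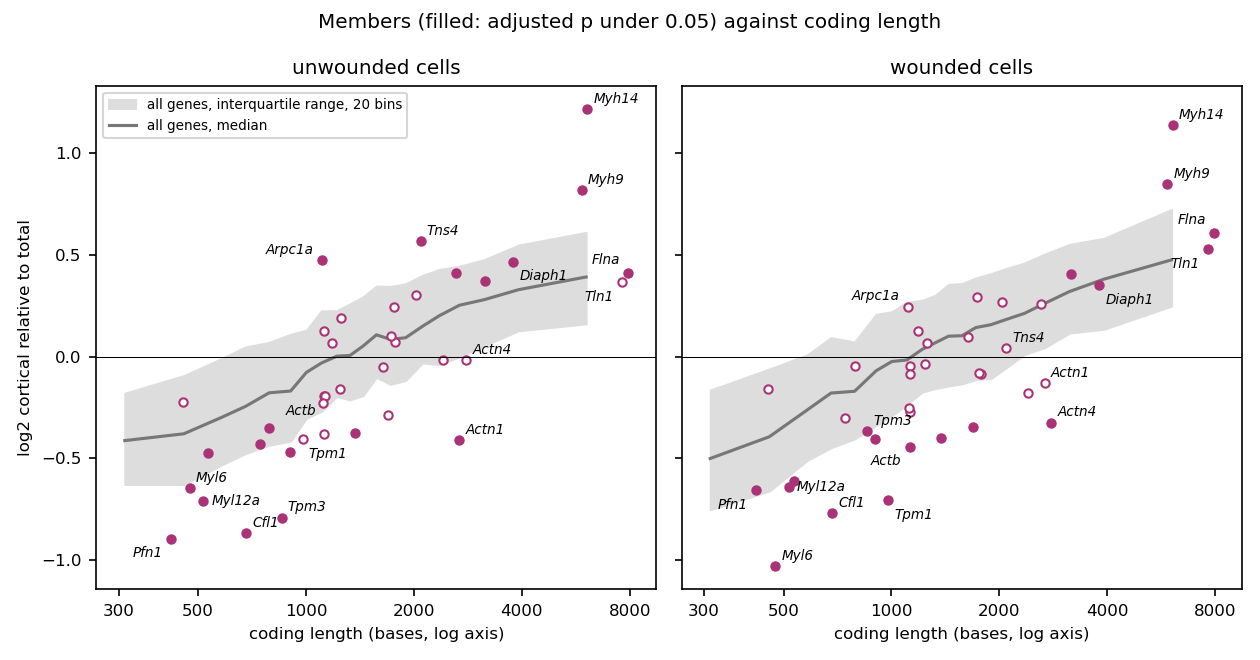
Log2 difference between cortical and total fraction (y axis) against coding length in bases (log axis) for 38 members (points, filled where the adjusted p was under 0.05). The grey line is the median and the band the interquartile range of all genes in 20 bins of length. In unwounded cells Myh14, Myh9, Arpc1a and Tns4 are among the members above the band. Actn1, Tpm3, Cfl1, Pfn1, Myl12a, Arpc2 and Pdlim7 are among those below it.

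How far single libraries carried the fraction calls differed by gene. In unwounded cells 9 of the 19 calls, those on Myh9, Myh14, Myl6, Myl12a, Tpm3, Arpc2, Cfl1, Pfn1 and Tns4, held with each of the 12 libraries left out in turn, and in wounded cells 9 of the 18, those on Flna, Myh9, Myh14, Myl6, Myl12a, Tpm1, Arpc3, Cfl1 and Pfn1. The number of members called ran from 11 (without the unwounded total replicate 2) to 25 (without the wounded total replicate 1) in unwounded cells, and from 9 (without the wounded total replicate 2) to 22 (without the wounded total replicate 1) in wounded cells. Calls over all genes moved the same way in these fits, from 6.69% to 22.4% in unwounded and from 7.66% to 24.7% in wounded cells. Without the wounded total replicate 1, Ezr, Parva, Tln1, Tpm1, Vasp and Zyx were also called in unwounded cells, at 0.24, -0.23, 0.36, -0.41, -0.39 and -0.29. In wounded cells Bcar1, Cttn, Parva and Tpm4 were also called, at 0.30, 0.45, -0.34 and -0.32, and Myl6, Cfl1, Pfn1 and Arpc3 lay at -1.22, -0.91, -0.80 and -0.72.

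Other genes of the same pathways passed in both directions too. Of 87 tested genes for further Arp2/3 activators, turnover factors, bundlers, formins, adhesion adaptors, tropomyosins, ERM partners and SRF (serum response factor) with its coactivators, 23 (26.4%) passed in unwounded cells, 11 higher and 12 lower, against 14.2% of all genes, with a median of 0.03. The highest were the tensin Tns3 at 0.86, the stress fibre protein synaptopodin (Synpo) at 0.65 and the formin Daam1 at 0.59. The lowest were the cofilin relative destrin (Dstn) at -0.66, the Arp2/3 subunit Arpc4 at -0.65 and the calponin-like Tagln2 at -0.63. In wounded cells 22 (25.3%) passed, 9 higher and 13 lower, against 15.7% of all genes, with a median of 0.02: highest were the formins Diaph2 at 0.98 and Daam1 at 0.88 and the WAVE complex subunit Cyfip1 at 0.86, and lowest the capping protein Capg at -0.93, the twinfilin Twf2 at -0.81 and Tagln2 at -0.78.

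Members of several roles were higher in wounded than in unwounded cells. Of the 41 tested members 11 passed, 10 higher (Actn4, Myh9, Myh14, Myl6, Arpc3, Diaph1, Enah, Tns4, Zyx and Ezr) and 1 lower (Tpm3) in wounded cells, against 15.6% of all genes (8.39% higher, 7.2% lower), and the median was 0.08 against -0.03. In the cortical fraction 6 passed, all higher (Actn4, Flna, Myh14, Arpc1b, Tns4 and Zyx), and 0 lower, against 2.48% of all genes (1.6% higher, 0.884% lower), with a median of 0.12 against 0.02. There 13 members had an unadjusted p under 0.05, as did 2341 of all 13571 genes. DESeq2 called 7 members, against 5.42% of all genes. In these bulk samples fewer cells of a type and less RNA per cell cannot be told apart. The summed FPKM of the keratinocyte markers was 5464 to 6073 in unwounded total, 7728 to 7827 in unwounded cortical, 8882 to 10550 in wounded total and 10480 to 10660 in wounded cortical libraries. The summed FPKM of 6 immune markers was 16.4 to 19.3, 14.2 to 16.6, 34.3 to 46.8 and 25.7 to 30.3 in the same order, nearly all of it Cd68, with Itgam, Cd207 and Csf1r at 0 throughout. The part of either in the members' changes was not tested.

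**Figure D5:**
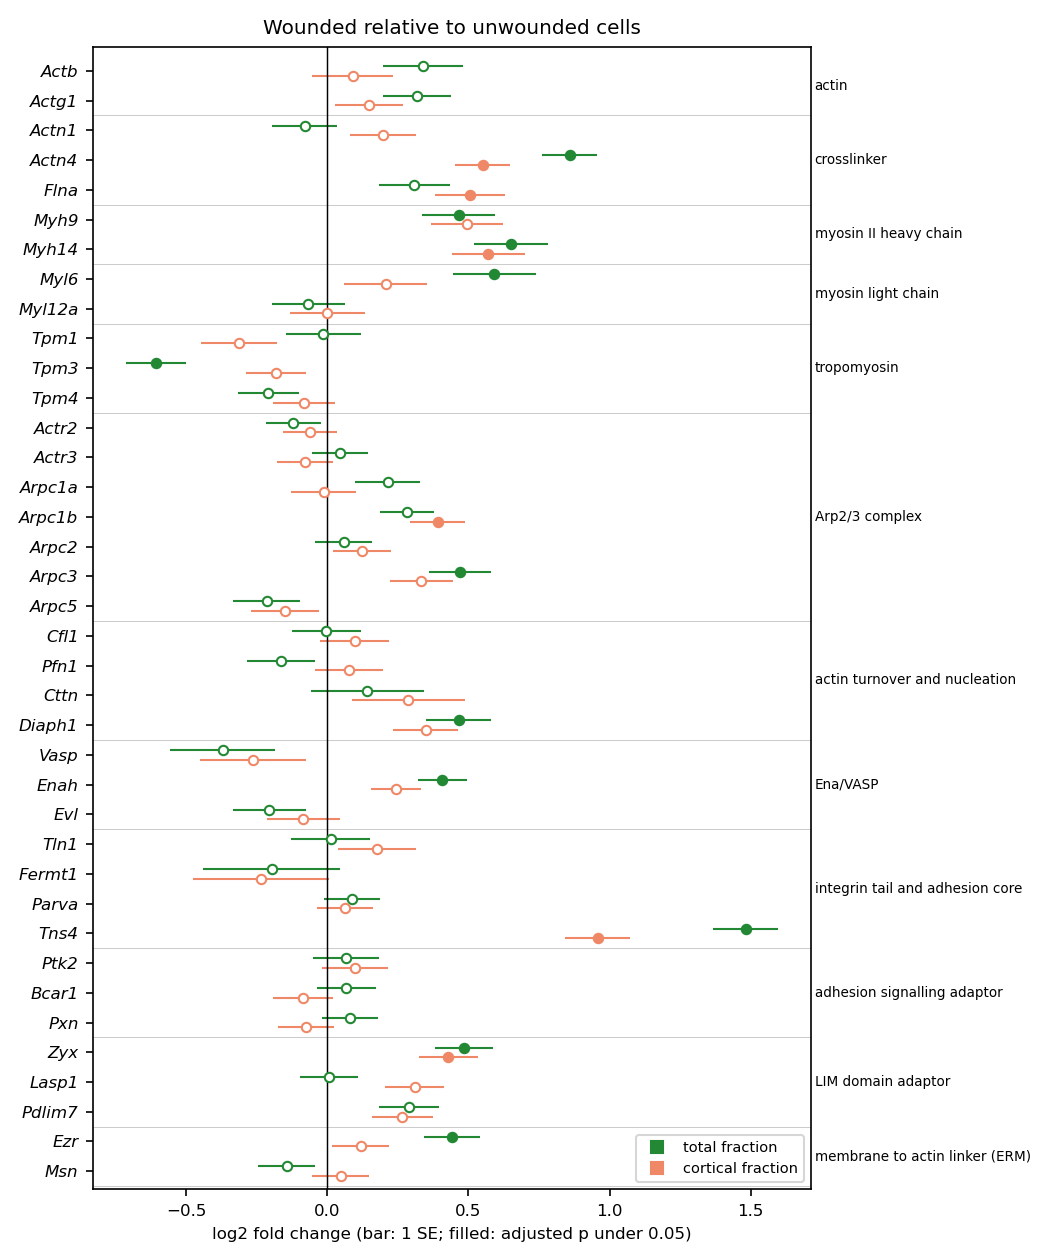
Log2 difference between wounded and unwounded cells (x axis) for 38 members grouped by role, in the total (green) and cortical (orange) fraction. Bars are 1 standard error and filled points passed an adjusted p of 0.05; Tns4 lies farthest right in both fractions and Tpm3 farthest left in the total fraction.

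Tns4 had the largest called change with wounding of any member. It had 142, 112 and 124 CPM in unwounded total and 306, 361 and 392 in wounded total libraries, 1.48 (SE 0.12, adjusted p = 6.66e-07), 2.80-fold. In the cortical fraction it went from 185, 189.6 and 186 to 358, 352 and 379.6, 0.96 (SE 0.11, adjusted p = 0.000249). All wounded libraries lay above all unwounded ones in both fractions, and both calls held in each of the 24 other settings. Its fraction difference was 0.57 before and 0.04 after wounding, and the test of that change gave -0.53 (SE 0.16, adjusted p = 0.327).

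Crosslinkers and their partners followed. Actn4, an alpha-actinin of moving cell edges, had 164, 151 and 175 CPM in unwounded total and 285, 292 and 313 in wounded total libraries, 0.86 (SE 0.10, adjusted p = 3.03e-05), and 151, 164 and 169 against 227, 243 and 239.8 in the cortical fraction, 0.55 (SE 0.10, adjusted p = 0.00613). Both calls held in all 24 other settings. Actn1 was at -0.08 and 0.20 without a call, and Actn4 made up 69.4% ± 0.691 of the FPKM of both alpha-actinins in unwounded total and 81.3% ± 1.79 in wounded total libraries (exact permutation p = 0.1), and 74.8% ± 1.80 and 79.2% ± 1.11 in the cortical ones (SD, n = 3; exact permutation p = 0.1). Filamin A was called in the cortical fraction at 0.50 (SE 0.12, adjusted p = 0.0407) and stood at 0.31 in the total fraction (adjusted p = 0.108). The filamin call was lost in 9 of 12 fits that left out a library.

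Of the LIM adaptors, zyxin had 151, 133 and 123 CPM in unwounded total and 171, 198 and 199.8 in wounded total libraries, 0.48 (SE 0.10, adjusted p = 0.00489), and 0.43 in the cortical fraction (adjusted p = 0.0387). In both fractions the wounded libraries lay above the unwounded ones without overlap, and the cortical call was lost in 9 of 12 fits without a library. Enah, the Ena/VASP protein also called Mena, had 165, 164 and 168 and 219, 211 and 231 in the total fraction, 0.41 (SE 0.09, adjusted p = 0.00482), and 0.24 in the cortical fraction (adjusted p = 0.152). Its relatives Vasp and Evl were at -0.37 and -0.21 in the total fraction, without a call.

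Both myosin heavy chains were higher in wounded total libraries, Myh14 by 0.65 (SE 0.13, adjusted p = 0.00284) and Myh9 by 0.47 (SE 0.13, adjusted p = 0.022), with no overlap between the libraries. Myh9 had 90.2, 71.7 and 87.1 CPM in wounded total and 144, 157 and 148 in wounded cortical libraries. In the cortical fraction Myh14 was called at 0.57 (SE 0.13, adjusted p = 0.0247), and Myh9 missed the threshold at 0.49 (SE 0.13, adjusted p = 0.0507). The cortical call on Myh14 was lost in 7 of 12 fits that left out a library and in 3 of 12 other settings. In this fraction too, every wounded library of both genes lay above every unwounded one. Myl6 rose in the total fraction by 0.59 (SE 0.15, adjusted p = 0.0125), but the first wounded total library lay within the unwounded range; without it the difference was 0.78 (adjusted p = 1.43e-06). In the cortical fraction Myl6 was at 0.21 without a call, and Myl12a at -0.07 and 0.00.

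Ezrin had 249.7, 229 and 280.4 CPM in unwounded total and 362, 328 and 339.6 in wounded total libraries, 0.44 (SE 0.10, adjusted p = 0.00699), and 0.12 in the cortical fraction (adjusted p = 0.609). Moesin was at -0.15 and 0.05, and the ezrin share of the FPKM of both was 84.3% ± 0.918 in unwounded and 89.0% ± 1.06 in wounded total libraries (SD, n = 3; exact permutation p = 0.1). Tpm3 was the 1 member called lower with wounding in the main fit. It had 109, 106 and 111 CPM in unwounded total and 66.5, 77.2 and 70.3 in wounded total libraries, without overlap, -0.61 (SE 0.11, adjusted p = 0.00105). In the cortical fraction it was at -0.18 (adjusted p = 0.414). Diaph1 rose in the total fraction by 0.46 (SE 0.11, adjusted p = 0.0116).

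Of the Arp2/3 subunits, Arpc3 rose in the total fraction by 0.47 (SE 0.11, adjusted p = 0.00873). Arpc1b had 213, 215 and 201 CPM in unwounded cortical and 273, 295 and 256 in wounded cortical libraries, 0.39 (SE 0.10, adjusted p = 0.0411), a call lost in 9 of 12 fits without a library. In the total fraction Arpc1b was at 0.28 (adjusted p = 0.0574). The Arpc1a share of the ARPC1 FPKM was 80.6% ± 1.78 in unwounded and 75.9% ± 1.79 in wounded cortical libraries (SD, n = 3; exact permutation p = 0.1). The core subunits Actr2 and Actr3 lay between -0.12 and 0.05 in both fractions without a call. Cofilin was at 0.10 in the cortical fraction and within 1 SE of 0 in the total one (adjusted p = 0.989), and profilin at 0.08 and -0.16. The actins were at 0.34 (Actb) and 0.32 (Actg1) in the total fraction and 0.09 and 0.15 in the cortical one, all without a call.

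The wounding calls on Actn4, Myh14, Tpm3, Arpc3, Enah, Tns4, Zyx and Ezr in the total fraction, 8 of 11, and on Actn4 and Tns4 in the cortical fraction, 2 of 6, held with each library left out in turn. The number of members called ran from 8 (without the unwounded total replicate 1) to 15 (without the wounded total replicate 1) in the total fraction, and from 2 (7 different libraries left out) to 11 (without the wounded total replicate 1) in the cortical fraction. Calls over all genes moved the same way, from 7.99% to 24.9% in the total fraction. In the cortical fraction they went from 0.767% to 1.63% in those 7 fits to 9.07%. Without the wounded total replicate 1 Actb, Arpc1a and Arpc1b were called higher and Vasp lower in wounded total libraries, at 0.52, 0.33, 0.25 and -0.64, and Arpc3 was at 0.57. Arpc3, Diaph1, Enah, Lasp1 and Myh9 were then also called higher in wounded cortical libraries, at 0.33, 0.35, 0.24, 0.31 and 0.49.

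Among the other 87 pathway genes 17 (19.5%) passed with wounding in the total fraction, 12 higher and 5 lower, against 15.6% of all genes, and 5 (5.75%) in the cortical fraction, 4 higher and 1 lower, against 2.48%. The severing factor gelsolin (Gsn) was at 1.05 in the total and 0.54 in the cortical fraction, and the bundling protein eplin (Lima1) at 0.85 and 0.57. Capg was at 0.85 in the total fraction, and the cofilin cofactor Wdr1 at 0.51 in the cortical one. The largest falls were in Rnd3, an antagonist of RhoA signalling, at -0.99, the WAVE complex partner Abi2 at -0.60 and the GTPase gene Rhob at -0.51, all in the total fraction, and in the filament-end cap Tmod3 at -0.42 in the cortical one.

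Whether the fraction difference itself changed with wounding was tested as an interaction. The fraction and wounding comparisons share libraries, so their values for a gene stand side by side and are not independent. Of 41 members 0 passed, against 0.125% of all genes. An unadjusted p under 0.05 was found for 5 members (Actn4, Tpm3, Ilk, Tns4 and Ezr) and for 1228 of all 13571 genes. DESeq2 called 0 members and voom with library quality weights 4 (Actb, Myl6, Arpc1a and Tns4), against 0.531% and 6.3% of all genes. Without the wounded total replicate 1 the test passed 3 members, against 2.93% of all genes: Actb at -0.44 (adjusted p = 0.033), Myl6 at -0.57 (0.014) and Tns4 at -0.62 (0.0112). With all libraries these were at -0.25 (SE 0.20, adjusted p = 0.776), -0.39 (SE 0.21, adjusted p = 0.624) and -0.53 (SE 0.16, adjusted p = 0.327). The heavy chains were close to 0, Myh9 at 0.03 (SE 0.18, adjusted p = 0.977) and Myh14 at -0.08 (SE 0.18, adjusted p = 0.934).

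Many actin genes are known targets of serum response factor, which binds the CArG box. Promoters from RefSeq (GRCm38.p6, 250 bases before to 50 after the start) were found for 37 members and searched for this box, whose pattern is its own reverse complement. The other 7, Actb, Cttn, Pxn, Ptk2, Parva, Diaph1 and Tns4, were not searched. It was present in 5 of the 37 (13.5%), Actg1, Myl6, Myl9, Vcl and Fermt2, and in 488 of 27025 gene symbols (1.81%). Windows of 50 bases around the box of 4 of them are shown with the box in capitals, since these 4 run from an abundant to an undetected message: Actg1 at chr11:120348556-120348605 (minus strand, box 90 bases before the start), Vcl at chr14:20929151-20929200 (plus, 227), Myl9 at chr2:156775283-156775332 (plus, 161) and Fermt2 at chr14:45530240-45530289 (minus, 204).
Actg1: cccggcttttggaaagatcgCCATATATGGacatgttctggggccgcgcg
Vcl: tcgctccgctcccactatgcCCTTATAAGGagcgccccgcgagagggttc
Myl9: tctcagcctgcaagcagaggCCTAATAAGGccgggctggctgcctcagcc
Fermt2: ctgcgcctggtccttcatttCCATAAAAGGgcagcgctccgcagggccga
Of these 5 genes Myl6 alone was called in any comparison, and Myl9 and Fermt2 were not tested. The window of Myl6, with the box 50 bases before the start, is not shown. In FPKM averaged over all libraries Myl6 stood at 250, Actg1 at 93.3, Vcl at 0.142, Myl9 at 0.0118 and Fermt2 at 0. A match of letters is a description and not a binding site.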

How the data were processed

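A total of 12 messenger RNA libraries (4 groups of 3) were analysed from a table of fragment counts and one of FPKM values per gene. The authors deposited both; per the submitters' processing notes CASAVA and HISAT2 were used with the mm10 build, and the counting tool and annotation are not given in the sources used here. Per the labels' protocols the poly(A) libraries were non-directional. The deposited counts were whole numbers and entered edgeR 4.0.16 (R 4.3.3) unchanged: filterByExpr, TMM factors, 1 mean per group over all 12 libraries, quasi-likelihood F tests of 5 contrasts, and Benjamini-Hochberg adjustment over 13571 genes at 0.05. CPM values use the TMM-scaled total of the tested genes, and standard errors are the log2 fold change divided by the square root of F. The FPKM values the authors deposited served to compare levels between genes. The tests were checked on simulated counts. A bias on gene length was added to some, with a size that was chosen and not fitted to these data. There most calls of the fit without length correction were false. That share depends on the chosen size and gives no rate of false calls for these libraries.

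Members and gene lists were chosen with earlier results of these data known. Values per library are given for members called in any contrast, in the called contrast with the largest difference, and from the other pathway genes up to 3 called per direction are named. All 44 members had the coordinates of GENCODE M21 (GRCm38), which gave coding lengths (longest coding sequence), coding bases and 3′ UTRs; promoters are from RefSeq. Replicate numbers were not used as pairs, since same-numbered libraries did not deviate together in every pair. Bound and unbound RNA were split from the same material, but the labels do not say which cortical and total libraries share a culture. The tests treat the fractions as independent, and a block on replicate number, shared by wounded and unwounded cells, does not model pairs by culture. Alternatives were DESeq2 1.42.0, limma 3.58.1 (trend on log2(FPKM + 1) and log2(FPKM + 0.1), voom with quality weights), other scaling, no filter, only the groups compared, length trends removed (loess, span 0.5), a replicate block and each library left out.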

Additional observations from a re-analysis of the deposited data

How the results depend on the processing

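All 54 called changes of members kept their direction in every fit that left out a library and in 11 of the other 12 settings; 3 reversed in sign with the coding length trend removed (Flna between the fractions of unwounded cells, -0.0403, adjusted p = 0.900; Diaph1 and Tln1 in wounded cells, -0.0186 and -0.0380, adjusted p = 0.939 and 0.908), where that trend, which runs over all genes, is taken out. Counted over all 41 tested members, 19 and 18 were called between the fractions of unwounded and wounded cells; without the coding length trend 11 were called in the former (10 of the 19, and Zyx), and from the groups compared alone 9 in the latter. With wounding in the total fraction 11 were called, 18 by voom with quality weights and 7 from the groups compared alone. In the cortical fraction 6 were called, 2 with library totals, 3 each with limma-trend on log2(FPKM + 1) and log2(FPKM + 0.1), and 11 each with voom with quality weights and from the groups compared alone. Of all genes 1.47% were called there with library totals and 2.2% and 1.97% with the 2 limma-trend fits, against 2.48% in the main fit. For the interaction voom with quality weights called 4. Leaving out 1 library gave 11 to 25, 9 to 22, 8 to 15, 2 to 11 and 0 to 3 members called in the 5 comparisons, with the highest count always without the wounded total replicate 1. Calls over all genes were also most numerous without that library, at 22.4%, 24.7%, 24.9%, 9.07% and 2.93%. Why the counts moved was not tested. Over all genes 1928, 2124, 2116, 337 and 17 were called; voom with quality weights called 3708, 4441, 5206, 1316 and 855, the groups compared alone 3014, 970, 1175 and 1423 (the interaction needs all groups), DESeq2 736 and 72 in the last 2, no filter 559 and 138, and coding length removal 1085, 1087, 583 and 32 (unwounded and wounded fraction, cortical wounding, interaction). With the replicate number as a block 18, 17, 11, 5 and 0 members were called, against 13.7%, 14.6%, 15%, 2.03% and 0.0737% of all genes. Without the block these shares of all genes were 14.2%, 15.7%, 15.6%, 2.48% and 0.125%. Ptk2 in unwounded cells (adjusted p = 0.0525), Diaph1 in wounded cells (0.0540) and Flna and Zyx with wounding in the cortical fraction (0.0517 and 0.0615) lost their calls. Myh9 gained one with wounding in the cortical fraction (0.0457). Same-numbered libraries correlated at -0.03 to 0.24 over 10386 genes, so the block rests on shared numbers. Depth limited Ilk, Vcl and Myl12b most, with 92, 274 and 299 counts in all and standard errors of 2.01, 0.93 and 0.89 between the wounded fractions.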
